A study of Mus musculus with 9 samples.

Results

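The 10 genes described here, Prps1, Ppat, Gart, Pfas, Paics, Adsl, Atic, Impdh1, Impdh2 and Gmps, encode the enzymes that build purine nucleotides from small precursors. They were chosen by name for this pathway and not by their values, although earlier results of these data were known. All 10 were found among the 26858 genes of the table and among the 14990 genes tested. Transcripts were measured by RNA-seq in nephron progenitors sorted from kidneys at embryonic age E18.5. Controls were Six2-Qpc+/- (n = 4 libraries, numbered 71, 72, 73 and 76), in which 1 allele of Qpc was inactivated, and mutants were Six2-Qpc-/- (n = 5 libraries, numbered 74, 75, 77, 78 and 79), in which both were. Qpc is the study's name for Uqcrq, a nuclear gene for a ubiquinone-binding subunit of mitochondrial complex III. In both groups, the recombinase was a fusion of Cre with eGFP expressed from the Six2 promoter, so eGFP+ cells of either genotype had expressed Cre, and the controls were heterozygotes and not wild type. Nothing in the labels says whether the preparations came from separate embryos or litters, and p-values therefore measure the spread between these libraries, which may be technical. In a sorted pool, fewer cells that express a gene and less RNA per cell cannot be told apart.

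De novo purine synthesis starts from phosphoribosyl pyrophosphate (PRPP), an activated ribose phosphate, and assembles the purine ring on it from glutamine, glycine, aspartate, carbon dioxide and formyl groups carried by folate. The first complete purine is inosine monophosphate (IMP), from which separate branches lead to GMP and AMP. Cells can also recover purines by salvage of free bases and nucleosides, and dividing cells typically draw on the de novo route for RNA, DNA and nucleotide cofactors. Nephron progenitors are the SIX2-expressing cells of the cap mesenchyme, which renew themselves and give rise to all nephron segments up to the collecting duct.

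Library totals ranged from 21040536 to 23986458 counts. The targeted gene Uqcrq was at 94.1 ± 13.3 CPM (counts per 1000000 counts of the normalized library) in control (SD, n = 4) and 21.3 ± 4.45 CPM in mutant (SD, n = 5), with no overlap. None of the 11 progenitor markers tested passed the threshold, and their summed level was 2338 to 2845 CPM in control and 2335 to 2804 CPM in mutant. Markers of other cells were present at lower levels, and those of some cell types differed between genotypes. The counts below are read against all genes tested, of which 14.8% had an adjusted p under 0.05, 7.82% higher and 7.02% lower in mutant. Of 9 stromal markers tested, 6 were higher in mutant, with sums of 139 to 187 CPM in control and 278 to 746 CPM in mutant. Of 6 myeloid markers tested, 2 were higher, with sums of 2.30 to 8.78 and 8.35 to 94.8 CPM. Of 4 endothelial markers tested, 1 was higher, Pecam1 (adjusted p = 0.047), with sums of 2.73 to 5.52 and 4.38 to 9.93 CPM. Pecam1 was near the floor, with 0 to 57 counts per library. It was at 0 to 0.38 CPM in control and 0.40 to 2.91 CPM in mutant. The other endothelial markers tested did not pass and had log2 fold changes from -0.17 to 1.41. These counts moved when 1 library was left out, to 3 stromal markers without control 73, to 6 myeloid markers without mutant 74 and 1 without mutants 75, 77, 78 or 79, and to no endothelial marker without any of the libraries except mutant 75. Of the stromal, myeloid and endothelial markers in the table, none was at 0 in all libraries. None of the podocyte (3 tested), proximal tubule (2), ureteric (3) or erythroid (1) markers passed with all libraries. When 1 library was left out, up to 1 podocyte and up to 2 ureteric markers passed. Of 10 committed-progenitor markers, 3 were lower, with sums of 378 to 733 CPM in control and 281 to 420 CPM in mutant, and without control 76 or mutant 74 the count was 5. Reads from Y-linked genes were present in controls 72 and 73 and mutant 79 (6758 to 7773 counts) and nearly absent from the other 6 libraries (0 to 4 counts). The part of these differences in the values below was not tested, except where values within the libraries that lack Y-linked reads are given.

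Transcripts of all 10 purine synthesis enzymes were detected in SIX2 progenitors of both genotypes, and no enzyme passed the test for a difference between them. None of the 10 had an adjusted p under 0.05 by edgeR's quasi-likelihood test with Benjamini-Hochberg adjustment, where 14.8% of all genes tested did, 7.82% higher and 7.02% lower in mutant. At an unadjusted p under 0.05 there were 2, Prps1 and Gmps, both with higher fitted values in mutant (31.4% of all genes), and in 1, Pfas, the libraries of the genotypes did not overlap (15.2% of all genes). Fitted values were higher in mutant for 6 enzymes and lower for 4, and the median log2 fold change, mutant against control, was 0.08, against -0.01 for all genes tested. The 95% intervals of all 10 log2 fold changes lay between -1 and 1, as did those of 65.0% of all genes tested. A change by a factor of more than 2 in either direction was thus outside the interval for each enzyme, while smaller differences lay within it. The lowest lower bound was -0.72, for Impdh1, and the highest upper bound was 0.86, for Prps1.

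**Figure D1:**
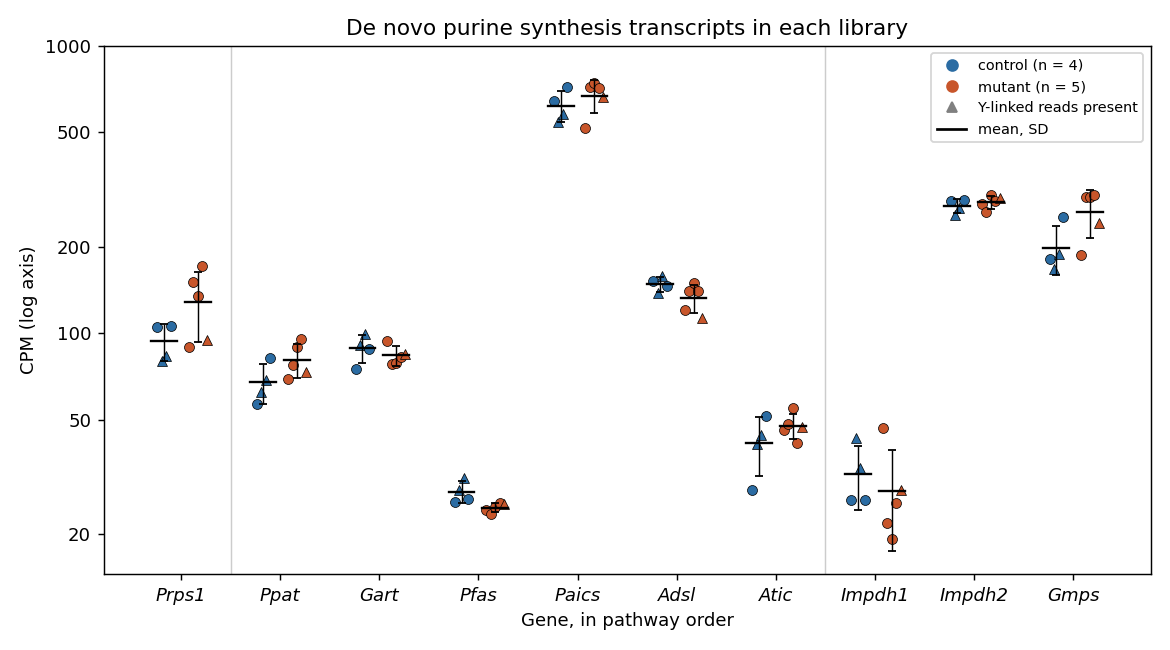
CPM of the 10 transcripts in each library, on a log axis, in pathway order from PRPP supply through IMP synthesis to the GMP branch (grey vertical lines separate these sections). Points are libraries (triangles, libraries with Y-linked reads), horizontal bars are means and error bars are SD; the genotypes overlap for every gene except Pfas, and the values span 19.1 CPM (Impdh1, mutant 77) to 743 CPM (Paics, mutant 77).

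The summed level of the 10 transcripts was 1594 ± 142 CPM in control (SD, n = 4) and 1748 ± 176 CPM in mutant (SD, n = 5), with ranges of 1450 to 1790 and 1479 to 1892 CPM that overlapped. Paics alone made up 37.1 to 40.6% of this sum in control and 35.1 to 39.8% in mutant. Libraries differed along the pathway in a recurring way. Control 76 was the highest control for 6 of the 10 enzymes (Prps1, Ppat, Paics, Atic, Impdh2 and Gmps), and mutant 74 was the lowest mutant for 4 (Prps1, Ppat, Paics and Gmps) and the highest for Gart and Impdh1. Control 71 was the lowest control for 5 enzymes (Ppat, Gart, Pfas, Atic and Impdh1).

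Per kilobase of gene length, the scale on which genes can be compared, levels in control spanned a wide range. Paics was highest with 249.9 ± 31.4 CPM per kilobase (SD, n = 4), at percentile 97.9 of all genes tested, followed by Impdh2 with 179.5 ± 9.93 CPM per kilobase, at percentile 96.8. Then came Prps1 (47.7), Adsl (39.9), Gart (25.1), Gmps (24.4), Ppat (16.2), Atic (14.5), Impdh1 (12.5) and Pfas (4.40), each the control mean in CPM per kilobase. Pfas, at percentile 43.9, was the only member under the median gene. In control, the library ranges of Prps1 and Adsl, of Gart and Gmps, of Ppat and Atic and of Atic and Impdh1 overlapped. The order of these neighbours is that of their means, and whether they differ within single libraries was not tested. In mutant, Paics was at 271 ± 36.2 and Pfas at 3.87 ± 0.14 CPM per kilobase (SD, n = 5), again the highest and the lowest.

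Prps1 (chrX:140456613-140476140, plus strand, mm10) encodes PRPP synthetase, which supplies the ribose phosphate on which the ring is built. Its level was 105, 79.9, 83.5 and 106 CPM in controls 71, 72, 73 and 76. In mutants 74, 75, 77, 78 and 79 it was 89.8, 150.3, 135, 171 and 94.7 CPM. Mutants 75, 77 and 78 were above every control, whereas mutants 74 and 79 lay within the control range. The log2 fold change was 0.45 (SE 0.19, 95% interval 0.05 to 0.86), with an adjusted p of 0.119, and the 2-sided exact permutation test gave p = 0.119. The adjusted p ranged from 0.0113 to 0.457 over the alternatives: Prps1 passed with limma-voom (0.0113) and without mutant 74 (log2 fold change 0.56, adjusted p = 0.0333), and did not pass under the other 16. Of all genes tested, 32.4% passed with limma-voom and 21.2% without mutant 74.

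Because Prps1 is X-linked, its values were also read beside the Y-linked reads. Among libraries without them, the controls were at 105 and 106 CPM and the mutants at 89.8 to 171 CPM; among those with them, the controls were at 79.9 and 83.5 CPM and the only mutant at 94.7 CPM. Within libraries without Y-linked reads, the log2 fold change was 0.37 with an adjusted p of 0.457, and with Y-linked expression as a covariate it was 0.32 with an adjusted p of 0.216. A transcript of the related autosomal gene Prps1l3 shares 93.2% identity with Prps1 over 1478 bases, so that reads may be split between them. Prps1l3, picked after its values were seen, had 826 to 1560 counts per library and a log2 fold change of -0.21 (SE 0.15). The sum of both was 156 ± 15.5 CPM in control (SD, n = 4) and 182 ± 44.6 CPM in mutant (SD, n = 5), with a log2 difference of 0.19 and p = 0.333 by the exact permutation test. Prps2, which encodes the other widely expressed PRPP synthetase, was at 40.5 ± 5.51 CPM in control (SD, n = 4) and 34.6 ± 3.54 CPM in mutant (SD, n = 5), with a log2 fold change of -0.23 (SE 0.14, adjusted p = 0.269).

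The sequence before the Prps1 start is shown because it was the only one of the 9 enzymes with a window in the promoter table to hold TGATGNAA, a core shared by elements that ATF4 and related bZIP factors can bind, and because Atf4 rose in these mutants (values below). In RefSeq's promoter table for GRCm38.p6, the 250 bases before the start, chrX:140456353-140456602 on the plus strand, are as follows, with the match in capitals.
Prps1: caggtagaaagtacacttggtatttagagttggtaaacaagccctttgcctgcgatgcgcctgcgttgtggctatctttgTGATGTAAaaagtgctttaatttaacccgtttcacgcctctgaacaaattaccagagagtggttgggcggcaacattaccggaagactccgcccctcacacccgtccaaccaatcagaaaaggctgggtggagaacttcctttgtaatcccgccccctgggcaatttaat
The match begins 170 bases before the start, and 3.97% of all 32851 windows in the table hold one on either strand. A match is a description of letters and not a measured binding site. Prps1 was not called, and a link between this match, Atf4 and the Prps1 level was not tested.

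Synthesis of IMP begins with Ppat (chr5:76913249-76951578, minus strand), the amidotransferase of the first committed step. Ppat was at 56.6, 62.1, 68.9 and 81.7 CPM in the controls, in the order given above, and at 69.1, 77.2, 89.1, 95.1 and 73.1 CPM in the mutants. Mutants 77 and 78 were above every control and the other mutants overlapped with them. The log2 fold change was 0.26 (SE 0.14, 95% interval -0.04 to 0.56, adjusted p = 0.216), and the exact permutation test gave p = 0.111.

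Gart (chr16:91621186-91646952, minus strand) encodes a trifunctional enzyme that adds glycine and the first formyl group and closes the imidazole ring. It ranged from 75.2 to 99.2 CPM in control and from 77.8 to 94.0 CPM in mutant. Every mutant lay inside the control range, and the log2 fold change was -0.08 (SE 0.11, 95% interval -0.33 to 0.16, adjusted p = 0.666). An antisense gene, Gm15964, overlaps 1014 bases of Gart exons but had at most 10 counts in any library.

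Pfas (chr11:68985697-69008460, minus strand) encodes the synthase that brings in nitrogen from glutamine to form formylglycinamidine ribonucleotide. It was the lowest of the transcripts per kilobase and the only enzyme whose genotypes did not overlap. Controls were at 25.8, 28.5, 31.4 and 26.5 CPM, and mutants at 24.2, 23.4, 24.7, 25.6 and 25.5 CPM. The gap between the lowest control and the highest mutant was smaller than the spread among controls. The exact permutation test gave p = 0.00794, the smallest that 4 against 5 libraries allow, whereas the fit across all genes gave a log2 fold change of -0.19 (SE 0.12, 95% interval -0.45 to 0.08) with an adjusted p of 0.33, and no alternative passed the threshold. With 485 to 745 counts per library, the counting error of Pfas in mutant was 0.06 on the log2 scale, no smaller than the SD of 0.05 between mutants. Within the libraries without Y-linked reads, the controls were at 25.8 and 26.5 CPM and the mutants at 23.4 to 25.6 CPM.

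Paics (chr5:76951307-76967509, plus strand) encodes a bifunctional enzyme that adds carbon dioxide and then aspartate. Its level was 642, 542, 578 and 719 CPM in the controls. In the mutants it was 519.8, 720.2, 743, 713 and 663 CPM, with mutant 74 below every control. The log2 fold change was 0.12 (SE 0.13, 95% interval -0.17 to 0.40, adjusted p = 0.589). The pseudogenes Gm19241 and Gm4797 share 91.2% and 90% identity with Paics over 904 and 1285 bases. Adsl (chr15:80948490-80970947, plus strand) encodes the lyase that removes fumarate, both here and in the AMP branch. Adsl ranged from 138 to 158 CPM in control and from 113 to 149 CPM in mutant, with mutants 74 and 79 below every control, and its log2 fold change was -0.16 (SE 0.11, 95% interval -0.40 to 0.08, adjusted p = 0.349). Atic (chr1:71557150-71579631, plus strand) encodes the bifunctional enzyme that adds the last formyl group and closes the ring to IMP. Atic ranged from 28.5 to 51.3 CPM in control, where control 71 was the lowest, and from 41.4 to 54.9 CPM in mutant, and its log2 fold change was 0.20 (SE 0.16, 95% interval -0.14 to 0.55, adjusted p = 0.419).

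**Figure D2:**
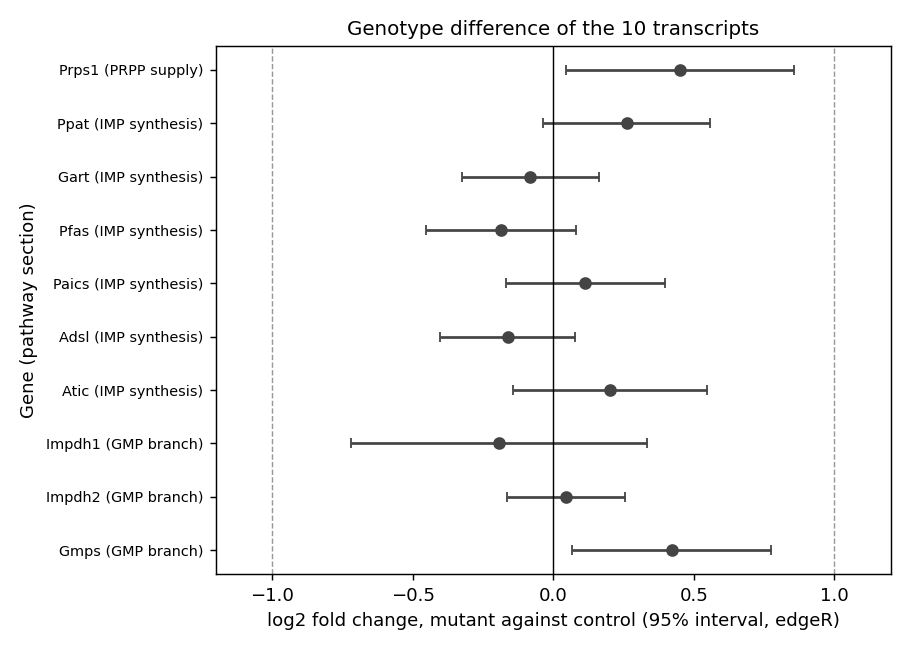
Log2 fold change of the 10 transcripts, mutant (n = 5) against control (n = 4), as points with 95% intervals from edgeR, in pathway order. All intervals lie inside the dashed lines at -1 and 1; those of Prps1 and Gmps do not include 0, and neither gene passed after adjustment over all 14990 genes tested.

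Ppat and Paics lie head to head on chromosome 5, and their genes as deposited overlap by 272 bases on opposite strands. Because strand was not kept, reads in these bases cannot be assigned to either gene. Per kilobase, Paics exceeded Ppat 19.0-fold in control 71, 14.6-fold in control 72, 14.1-fold in control 73 and 14.7-fold in control 76, and between 12.6-fold and 15.6-fold in the mutants. On the log2 scale, this ratio was 3.95 ± 0.20 in control (SD, n = 4) and 3.80 ± 0.15 in mutant (SD, n = 5), a difference of -0.15 with p = 0.222 by the exact permutation test. Without control 71, which stood above the other libraries, the difference was -0.05.

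Short stretches of the RefSeq windows, which run from 250 bases before to 50 bases after each start, are shown for the enzymes with the E-box CACGTG, the sequence bound by MYC and MYCN with MAX and by other bHLH factors, and for Ppat with a match to the palindromic NRF1 motif. Capitals mark the match. The Paics stretch is chr5:76951087-76951116 (plus strand), that of Atic is chr1:71557137-71557166 (plus strand), that of Impdh2 is chr9:108560314-108560343 (plus strand) and that of Ppat is chr5:76951601-76951630 (minus strand), all in GRCm38.p6.
Paics: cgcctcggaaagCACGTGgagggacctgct
Atic: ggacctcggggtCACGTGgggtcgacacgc
Impdh2: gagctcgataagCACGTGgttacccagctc
Ppat: gcttcccgccGCGCAGGCGCgctgacgcga
Counted from the RefSeq starts, the E-box began 203 bases before the start of Paics, 7 before that of Atic and 110 before that of Impdh2. The GENCODE M21 annotation places the Paics stretch in the first exon of Ppat, on the opposite strand, and the Ppat stretch in the first exon of Paics. In the same annotation, the Atic and Impdh2 stretches overlap untranslated exon sequence of Atic and Impdh2 themselves, on the same strand. Windows were given for 9 of the 10 enzymes (Pfas was not matched), of which 3 held CACGTG, against 7.15% of all windows, and 1 held the NRF1 motif, against 4.6%. GGGCGG, the GC box, was in all 9 (35.7% of all windows), CCAAT in 5 (37.4%) and CGGAAG, an ETS core, in 5 (16.9%), counted on both strands. Like all 10 enzymes, those with an E-box were not called in either direction, with log2 fold changes of 0.12, 0.20 and 0.04.

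The branch to GMP starts with IMP dehydrogenase, which oxidises IMP to xanthosine monophosphate with NAD+ as acceptor and exists as isozymes encoded by Impdh1 (chr6:29200434-29216364, minus strand) and Impdh2 (chr9:108560534-108565519, plus strand). Impdh2 was among the steadiest of the transcripts, with 289, 258, 273 and 290.3 CPM in the controls and 282, 263, 302, 287 and 295 CPM in the mutants. The ranges overlapped, and the log2 fold change was 0.04 (SE 0.10, 95% interval -0.17 to 0.25, adjusted p = 0.795). Impdh1 was lower and more variable, with an SD of log2 CPM of 0.35 in control and 0.49 in mutant, against 0.08 and 0.07 for Impdh2; only Atic, in control, exceeded it within a genotype (0.36). It was at 26.1, 43.3, 33.9 and 26.2 CPM in the controls and at 46.6, 21.8, 19.1, 25.6 and 28.3 CPM in the mutants. Mutant 74 was the highest of all libraries, 3 mutants were below every control, and the log2 fold change was -0.19 (SE 0.24, 95% interval -0.72 to 0.33, adjusted p = 0.629). Its sign turned with 1 surrogate variable (0.04) and within the libraries without Y-linked reads (0.11).

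Per kilobase, Impdh2 made up 93.5 ± 1.89% of the summed Impdh1 and Impdh2 level in control (SD, n = 4) and 94.5 ± 2.01% in mutant (SD, n = 5). The lowest shares were those of control 72 (90.9%) and mutant 74 (91.1%), and the highest was that of mutant 77 (96.4%). The difference of 1.0 percentage points was within the spread of either genotype (p = 0.429, exact permutation test). The pseudogene Impdh2-ps shares 99.7% identity with Impdh2 over 1545 bases and could take or give reads. No gene of that name was among those with deposited counts. Impdh2 also shares 48 exon bases with Ndufaf3 on the opposite strand.

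**Figure D3:**
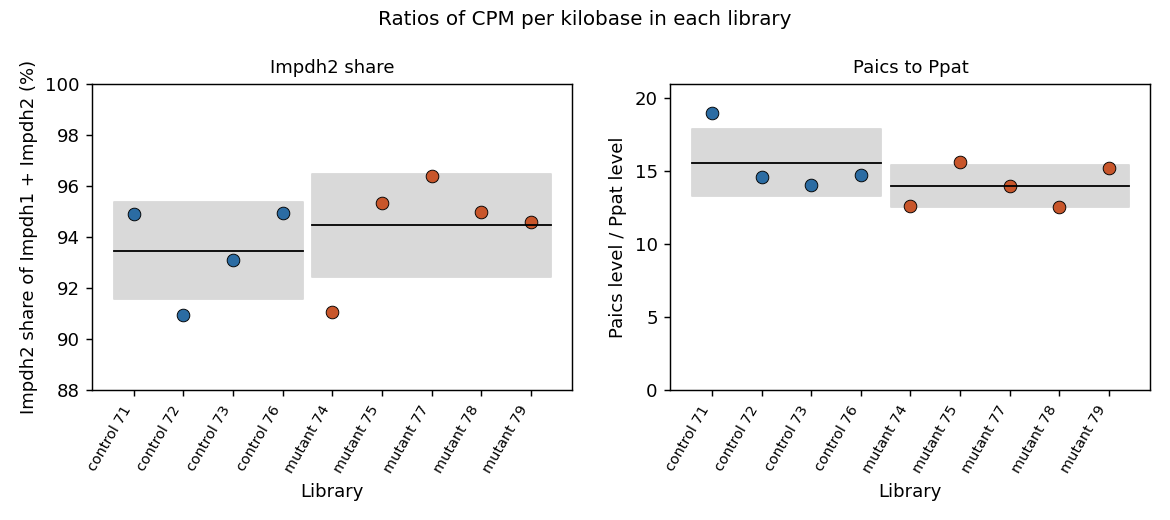
Left, share of Impdh2 in the summed Impdh1 and Impdh2 level (%, axis from 88 to 100); right, ratio of the Paics to the Ppat level, both from CPM per kilobase, 1 point per library (blue, control; orange, mutant). Lines are means and grey bands are 1 SD to either side; Impdh2 exceeds 90% in every library, and control 71 has the highest Paics to Ppat ratio (19.0).

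Gmps (chr3:63976106-64022579, plus strand) encodes GMP synthetase, which completes GMP with nitrogen from glutamine. It was at 180.5, 167, 188 and 255 CPM in the controls, and at 187, 298, 297, 302 and 241 CPM in the mutants. Mutants 75, 77 and 78 were above every control, mutant 79 was above all but control 76, and mutant 74 lay among the remaining controls. The log2 fold change was 0.42 (SE 0.16, 95% interval 0.07 to 0.78, corresponding to a 1.05-fold to 1.71-fold difference), with an adjusted p of 0.0979, and the exact permutation test gave p = 0.0873. Over the alternatives the adjusted p ranged from 0.00723 to 0.524. Gmps passed without control 76 (log2 fold change 0.58, adjusted p = 0.0371), without mutant 74 (0.52, adjusted p = 0.0193) and with limma-voom (0.54, adjusted p = 0.00723), and did not pass under the other 15. The pseudogenes Gm20656 and Gm20657 share 98.9% and 99.3% identity with Gmps over 276 bases.

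The AMP branch shares Adsl and needs adenylosuccinate synthetase, which joins aspartate to IMP. Of its transcripts, Adss was at 113 ± 7.91 CPM in control (SD, n = 4) and 146 ± 17.2 CPM in mutant (SD, n = 5), without overlap, and rose with a log2 fold change of 0.37 (SE 0.12, adjusted p = 0.0454). This call was lost under 11 of 18 alternatives, among them leaving out any 1 control or mutants 75, 77 or 78, with an adjusted p of up to 0.123 over the 17 planned ones. Adss was the only one of 6 tested AMP-branch and PRPP-synthetase-related genes to pass, and the median log2 fold change of these genes was -0.18. Adssl1, for another adenylosuccinate synthetase, was at 10.6 ± 2.61 CPM in control (SD, n = 4) and 7.48 ± 2.31 CPM in mutant (SD, n = 5). Its log2 fold change was -0.51 (SE 0.26, adjusted p = 0.2085).

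Among transcripts for recovery and turnover of purines, the share that passed was near the 14.8% of all genes tested. Of 13 salvage genes tested, none rose and only Adal, an adenosine deaminase-like gene, fell, by 0.83 on the log2 scale (SE 0.17, adjusted p = 0.00794), with a median of -0.09 over the list. Hprt, the salvage enzyme for hypoxanthine and guanine, which uses the same PRPP, had a log2 fold change of 0.01 (SE 0.16, adjusted p = 0.97), and Aprt, its adenine counterpart, one of 0.19 (SE 0.14, adjusted p = 0.354). Of 7 breakdown genes tested, Nt5e, the ectonucleotidase that releases adenosine from AMP outside cells, fell by 2.0 (SE 0.56, adjusted p = 0.0309) and no other passed. This call was lost without controls 71, 72 or 73 or mutants 75 or 77. Nt5e was near the floor, with 3 to 84 counts per library, 1.35 to 3.27 CPM in control and 0.13 to 1.13 CPM in mutant. Of 11 nucleotide kinases tested, the adenylate kinase genes Ak1 and Ak4 fell by 0.87 (adjusted p = 0.00534) and 0.88 (adjusted p = 0.0174), and none rose; Ak4 did not pass without control 72. Without mutant 74 or mutant 79, 2 salvage genes passed.

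Genes that supply the precursors of the ring are read against the same 14.8%. Of 14 genes tested for glutamine and aspartate supply, 8 rose and none fell, and the median log2 fold change was 0.43. They included Glul, which makes glutamine (0.91, SE 0.15, adjusted p = 0.00255), Got1, which makes aspartate in the cytosol (0.52, SE 0.11, adjusted p = 0.0097), and Asns, which uses both amino acids to make asparagine (2.85, SE 0.24, adjusted p = 6.88e-05). Got2, the mitochondrial counterpart of Got1, pointed down without passing (-0.50, SE 0.19, adjusted p = 0.0951). Its mean was 196 CPM in control and 138 CPM in mutant, against 70.8 and 102 CPM for Got1. When 1 library was left out, 6 to 10 genes of the glutamine and aspartate list passed. Of 3 genes for serine synthesis, Psat1 (1.69, SE 0.19, adjusted p = 0.000364) and Psph (0.74, SE 0.20, adjusted p = 0.0241) rose, and Phgdh was at 0.36 (SE 0.13, adjusted p = 0.086); without controls 72 or 73 or mutants 77, 78 or 79 only Psat1 passed, and without control 76 all 3 did. Psph shares 452 exon bases with the abundant gene Cct6a on the opposite strand. Of 17 folate genes tested, 3 rose and 1 fell, Tyms, which makes thymidylate (-0.39, SE 0.12, adjusted p = 0.0497), with a median of -0.01 over the list. Those that rose were Mthfd2 (2.57, SE 0.19, adjusted p = 2.09e-05), Aldh1l2 (2.60, SE 0.31, adjusted p = 0.000523), which shares 1056 exon bases with the opposite-strand gene D10Wsu102e, and Shmt2 (0.49, SE 0.15, adjusted p = 0.0426), all of which encode mitochondrial enzymes; the other 7 mitochondrial genes of the list did not pass. The count of 4 became 2 without any 1 control or mutants 77, 78 or 79, and 3 without mutant 74 or 75. Mthfd1, the cytosolic enzyme that makes the formyl donor used by Gart and Atic, had a log2 fold change of -0.06 (SE 0.17, adjusted p = 0.846), and its sign turned under 5 alternatives.

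In the lists for ribose supply, deoxynucleotides and proliferation, the genes that passed fell, at shares to be read against the 14.8% of all genes that passed. Of 8 pentose phosphate genes tested, which lead to the ribose phosphate used by Prps1, G6pdx and Pgls of the oxidative arm fell by 0.52 (SE 0.12, adjusted p = 0.0124) and 0.59 (SE 0.12, adjusted p = 0.00666), and the median was -0.33; without mutant 74, 4 of these genes passed. Of 6 deoxynucleotide genes tested, the ribonucleotide reductase subunit genes Rrm1 and Rrm2 fell by 0.38 (adjusted p = 0.0247) and 0.42 (adjusted p = 0.0285); neither passed without controls 72, 73 or 76 or mutants 75 or 78, and 1 passed without control 71 or mutant 79. None of 5 pyrimidine synthesis genes passed, although Dhodh, whose enzyme passes electrons to ubiquinone in mitochondria (-0.35, adjusted p = 0.051), and Ctps (0.50, adjusted p = 0.0515) had genotypes that did not overlap (15.2% of all genes); 1 gene of the list passed without control 76, mutant 74 or mutant 79. Of 15 proliferation genes tested, 2 fell and none rose, with a median of -0.20. The share that passed was near the 14.8% of all genes that passed in either direction. Without control 73 no proliferation gene passed, and without control 72 or mutant 78 only 1 did. Among 9 transcription factors that can bind at purine enzyme genes or at the motifs searched, 3 rose, Atf4 (1.24, SE 0.17, adjusted p = 0.000857), Nfe2l2 (0.83, SE 0.17, adjusted p = 0.00822) and Yy1 (0.74, SE 0.14, adjusted p = 0.00482), and 1 fell, Mycn (-1.01, SE 0.22, adjusted p = 0.0103), while Myc was at 0.53 (SE 0.18, adjusted p = 0.0626). Some of these values are uncertain because reads could be shared: Adal, G6pdx and Pgls overlap exons of Lcmt2 (226 bases), Ikbkg (418 bases) and Fam129c (776 bases), and Ak4, Ctps, Glul, Phgdh, Psat1, Rrm2, Shmt2 and Tyms have pseudogene copies with at least 90% identity over at least 200 bases.

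**Figure D4:**
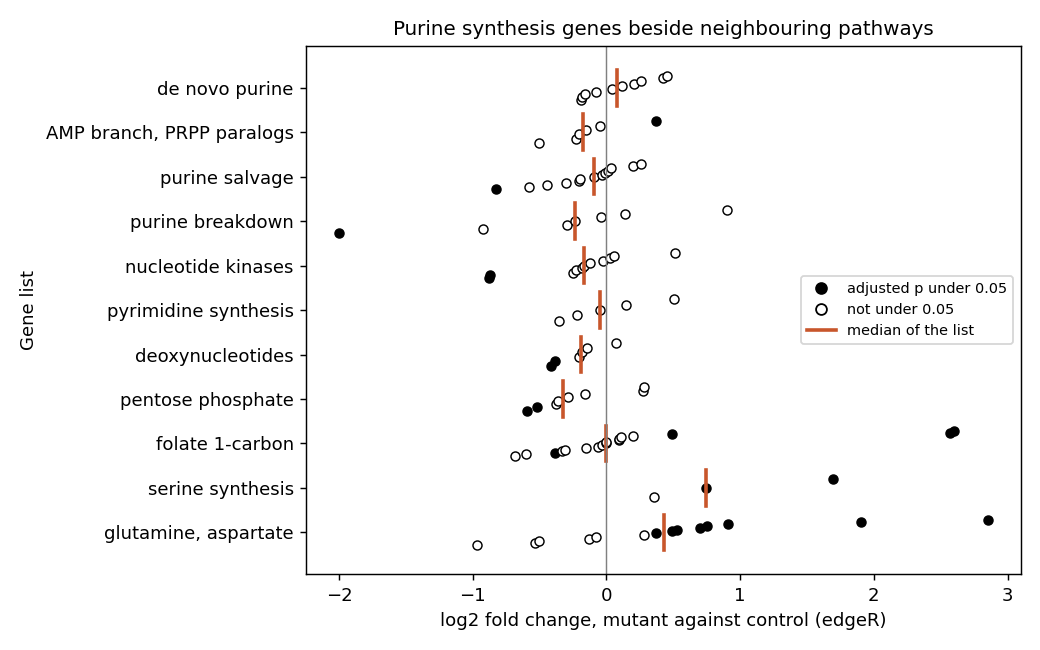
Log2 fold change, mutant (n = 5) against control (n = 4), of every gene tested in the purine synthesis list and in 10 neighbouring lists; 1 point per gene, filled where the adjusted p was under 0.05, with the list median as a vertical bar. The 10 purine synthesis genes are all open points between -0.19 and 0.45, whereas 8 of 14 glutamine and aspartate genes are filled points above 0.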

How the data were processed

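RNA-seq libraries were made from amplified cDNA of sorted cells (poly(A) selection, no strand information). The authors deposited 1 table with a column of read counts per library and gene lengths in bases; the submitters' processing notes name STAR, DESeq2 and mm10, and their roles, versions and the counting tool are not given in the sources used here. The table also holds the authors' FPKM, mean normalized signal, fold change and p-value columns, which were not used.

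The deposited counts entered edgeR 4.0.16 (R 4.3.3). Genes passing filterByExpr (14990 of 26858) were normalized by TMM and tested by the robust quasi-likelihood method, with Benjamini-Hochberg adjustment over all genes tested and a threshold of 0.05. CPM were scaled to 1000000 counts of the normalized library size. For single quantities, a 2-sided exact permutation test over all ways to divide the libraries into 4 and 5 was used (smallest p 0.00794), with no adjustment over the enzymes. Scripts were tested on simulated data. Similar transcripts were sought in GENCODE M21 (at least 90% identity over at least 200 bases).

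As alternatives, the fit was repeated with DESeq2 1.42.0, with RLE or upper-quartile factors, without a low-count filter, with a minimum of 10 counts per library, with limma-voom and quality weights (limma 3.58.1), with 1 surrogate variable from sva 3.50.0, with Y-linked expression as a covariate, with an unadjusted p, and without each of the 9 libraries in turn; ratios were also taken without division by gene length. The fit of only libraries without Y-linked reads was chosen after seeing the data.

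The 10 enzymes, the other lists and the tests were chosen with earlier results of these data known. Named were all 10 enzymes, Uqcrq, genes of the other lists with an adjusted p under 0.05, and a set of uncalled pathway genes; Prps1l3 was added for its similarity to Prps1. Replicate numbers differ between genotypes. The enzymes had 375 to 17043 counts per library, and the SD between libraries of a genotype exceeded the Poisson counting error for all of them except Pfas in mutant.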

Additional observations from a re-analysis of the deposited data

Results flagged for a closer look

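Of 24 sets of values examined for a library far from its group (12 measures in 2 genotypes), 1 held such a library, where chance gives about 1 in 20: the log2 ratio of Paics to Ppat was 4.25 in control 71 and between 3.81 and 3.88 in the other controls. The linear ratio was 19.0 there, and control 71 had the lowest Ppat level of the controls (56.6 CPM).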

How the results depend on the processing

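The median log2 fold change of the 10 enzymes stayed above 0 and moved by less than the spread between libraries under all 18 alternatives, from 0.03 to 0.14 when 1 library was left out. The number of enzymes called, 0 of 10, became 2 with limma-voom, 2 at an unadjusted p and 0 to 2 when 1 library was left out (1 without control 76, 2 without mutant 74). Those called were always Gmps or Gmps and Prps1, and the cause was not tested. Of all genes tested, 32.4% passed with limma-voom, 31.4% at an unadjusted p, 14.9% without control 76 and 21.2% without mutant 74. The number of all genes called, 2225, was 4858 with limma-voom, 90 in the libraries without Y-linked reads, where 2 controls and 4 mutants remained, and 1046 to 3136 when 1 library was left out. The sign of uncalled genes turned in the libraries without Y-linked reads for Gart (0.0233), Paics (-0.0187), Impdh1 (0.107), Impdh2 (-0.0338), Hprt (-0.0212) and Mthfd1 (0.138), and with 1 surrogate variable for Impdh1 (0.036), Hprt (-0.173) and Mthfd1 (0.083). It also turned for Hprt with upper-quartile normalization (-0.0166) and for Hprt and Mthfd1 with the Y-linked covariate (-0.0926 and 0.0665). When 1 library was left out, Hprt ranged from -0.0887 to 0.0941, turning without control 72 and mutants 75, 77 and 78, and Mthfd1 from -0.224 to 0.0561, turning without control 72 and mutant 75. The difference in Impdh2 share was 0.15 to 1.85 percentage points and that in the Paics to Ppat log2 ratio -0.20 to -0.05 when 1 library was left out, and neither passed. Of the neighbouring genes named, Mthfd2, Aldh1l2, Psat1 and Asns passed under every alternative, and the others that passed lost the call in the libraries without Y-linked reads. Tyms also lost its call without any 1 of the 9 libraries, with RLE factors (adjusted p = 0.0609) and without a low-count filter (0.0791), as did Rrm1 without that filter (0.0606), Shmt2 with upper-quartile factors (0.0526), and Adss with those (0.0664), without the filter (0.0814) and with the Y-linked covariate (0.073). When 1 library was left out, the calls of Adss, Rrm2 and Shmt2 were each lost without 7 of the libraries, those of Psph and Rrm1 without 5, that of Nt5e without 5 and that of Ak4 without 1 (control 72). No paired analysis was possible because control and mutant libraries share no replicate number.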
